A study of Mus musculus with 9 samples.

Results

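The genes of proteasome subunits and their regulators were taken from the gene count table by symbol, as every row whose symbol begins with Psma to Psmg followed by a digit, leaving out the inducible subunits Psmb8 and Psmb9 and the symbols that contain -ps. Of 18954 rows, 52 symbols matched and 48 remained after these exclusions. Of the 48 members, 16 encode core subunits, 17 cap subunits, 7 assembly chaperones, and 6 activators or an inhibitor, and the other 2 (Psmc3ip and Psme3ip1) match by symbol but are partners and not subunits. All 48 passed the filter on low counts.

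The proteasome is the cell's main machine for breaking down proteins that carry ubiquitin. Its barrel-shaped core, the 20S particle, is built from stacked rings of alpha subunits, which form the gate, and beta subunits, some of which cut peptide bonds. The 19S cap recognises, unfolds and feeds in ubiquitin-tagged proteins, its base pushing the chain with ATPases and its lid removing ubiquitin. Other activators (the PA28 rings and PA200) can bind the core in place of the cap, and dedicated chaperones put core and cap together. In liver, as in other tissues, the transcription factor NRF1, encoded by Nfe2l1, is known to raise many of these genes together when proteasome capacity falls short.

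RNA was read in 9 mouse livers at day 42. The genotype of 5 livers combined 1 knock-in allele for GSDMD-NT, the pore-forming N-terminal part of gasdermin D, with 1 Alb-cre allele, in which the albumin promoter, on in hepatocytes, drives Cre recombinase (GSDMD-NTki/wt with Alb-creki/wt). These are called Alb-cre livers below. The 4 control livers came from mice with the same GSDMD-NT allele and no Cre (GSDMD-NTki/wt). The series describes a doxycycline-induced model of cell death and liver fibrosis, but no label says which mice received doxycycline, and none of the samples analysed here is labelled with obeticholic acid, which the series also names. There were no livers with the Alb-cre allele alone, so what the Cre allele does by itself cannot be told apart from what GSDMD-NT does. The labels give no age and do not state that each liver came from its own animal, so the spread behind the p-values may be partly technical.

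Each liver had 13361093 to 16823506 counts, and single members had 5 to 3302 counts in a liver. Gsdmd measured 41.0 ± 7.16 CPM in Alb-cre livers and 38.8 ± 7.17 CPM in control livers (SD), a value that does not check the genotypes because it is not given whether reads of the insert were counted under that gene. Hepatocyte markers were abundant in every liver, with a summed level of 63316 to 73885 CPM in Alb-cre livers and 74847 to 91631 CPM in control livers over 8 genes, of which Fgb rose and Ttr and Ass1 fell. Of the markers of other cells that could be tested, edgeR called 2 of 7 endothelial genes higher (Lyve1 and Cdh5). It called 2 of 5 tested proliferation genes lower (Cdk1 and Birc5). None of 8 stellate cell, 5 cholangiocyte and 2 neutrophil genes was called (at an unadjusted p under 0.05, 1 cholangiocyte gene). Called were 37.5% of the hepatocyte, 28.6% of the endothelial and 40% of the proliferation genes, in lists of 5 to 8. Over all tested genes, 18.3% were called (9.25% higher and 9.07% lower), and no list was tested against this share. The part of these cells in the levels of the members was not tested. Control 4, and for some genes control 2, stood apart from the other controls among the members, and values without them stand beside the results that they moved most. In bulk RNA, fewer cells of a type and less RNA per cell cannot be told apart. Levels below are CPM (counts scaled to a common library size, with TMM factors), means carry the SD, and each log2 fold change is the Alb-cre livers minus the controls with its SE. Tests are edgeR's quasi-likelihood tests on 14004 genes, with the Benjamini-Hochberg adjustment made over the whole set and a call at an adjusted p under 0.05.

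Proteasome RNA differed little between the groups. The 48 members together held 0.328% of the counts in Alb-cre livers and 0.337% in control livers. At the call threshold, 1 member rose (Psme3, a nuclear activator) and 3 fell (the core subunits Psma4 and Psmb5 and the core assembly chaperone Psmg2). That is 4 of 48 members, against 18.3% of all tested genes (9.25% higher and 9.07% lower). The median size of the log2 fold change, whatever its sign, was 0.21 over the members and 0.31 over all tested genes. For 32 of the 48 members the 95% interval of the fold change stayed within 1.5-fold in either direction, as it did for 4442 of the 14004 genes. The members' levels were well determined, with a median SE of 0.12 on the log2 scale against 0.19 over all tested genes. At an unadjusted p under 0.05, 15 members passed (2 higher, 13 lower), beside 34.9% of all tested genes (2460 higher, 2421 lower).

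**Figure D1:**
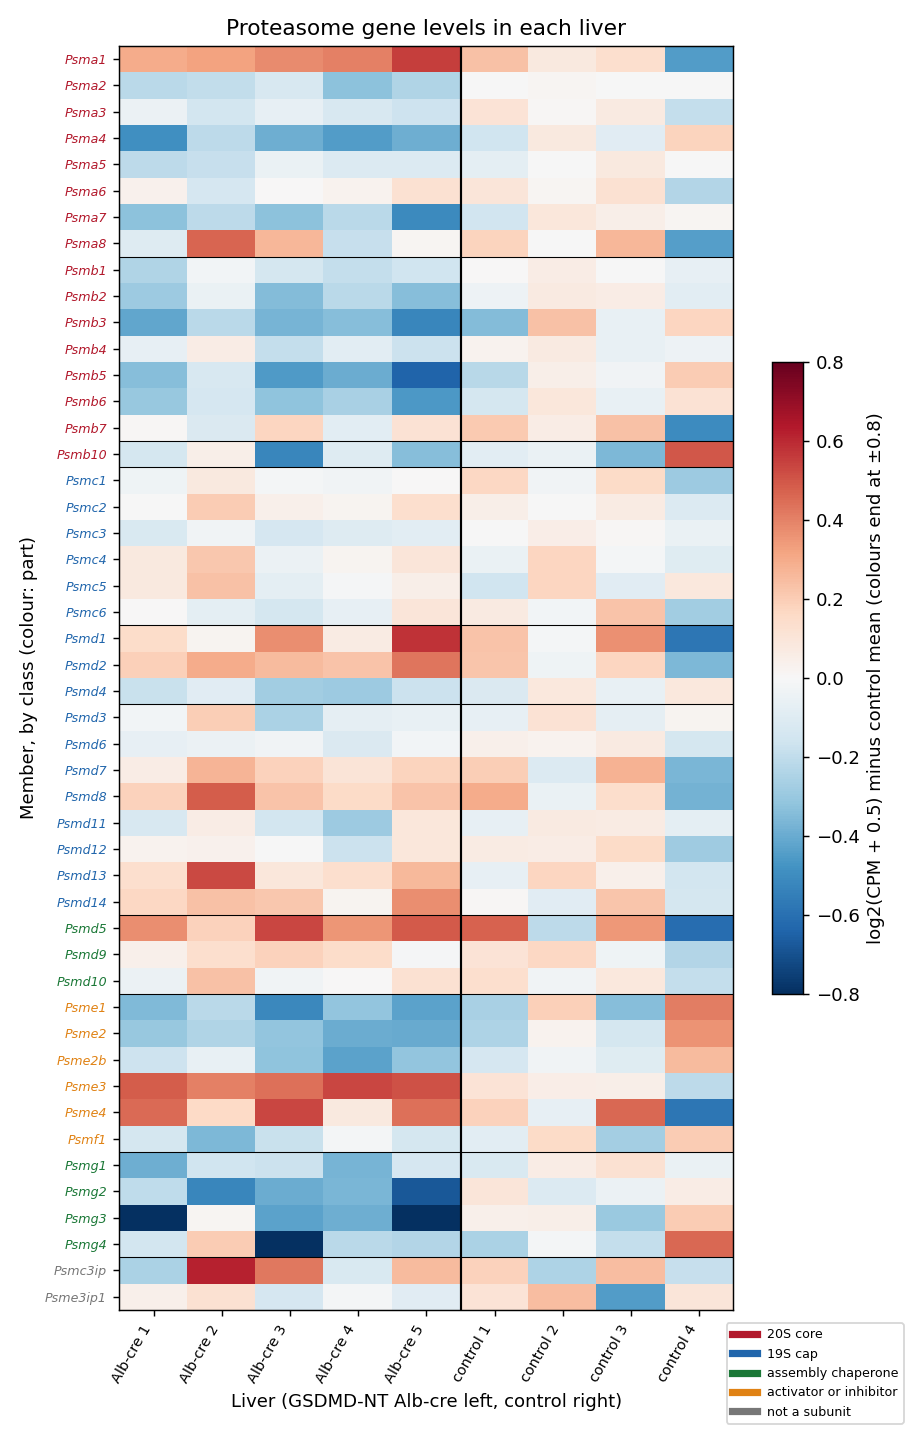
Level of each of the 48 members in each of the 9 livers, as log2(CPM + 0.5) minus the mean over the 4 control livers, with the 5 Alb-cre livers left of the vertical line and members grouped by class. The row of Psme3 is higher in all 5 Alb-cre livers than in any control, and many core rows are below 0 in those livers, while the cap rows lie on both sides of 0.

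The map of levels shows the members' differences liver by liver. Control 4 had the lowest level of all 9 livers for Psma1, Psmb7, Psmd1, Psmd2 and Psmd5 and the highest for Psme1, Psme2 and Psmb10. In 7 members the 2 groups did not overlap. Psme3 and Psma1 were higher in every Alb-cre liver, and Psma2, Psma4, Psma7, Psmg1 and Psmg2 were lower in every one. Over all tested genes, 18.5% had groups that did not overlap (9.23% higher and 9.22% lower).

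Among the activators, Psme3 encodes PA28 gamma, which forms a ring of its own in the nucleus and stimulates the core without ATP or ubiquitin. Psme3 measured 86.3, 81.3, 83.7, 89.2 and 87.6 CPM in Alb-cre livers 1 to 5, against 66.4, 63.8, 63.5 and 53.0 CPM in controls 1 to 4. Every Alb-cre liver was above every control, and control 4 was the lowest of the 9. Psme3 averaged 85.6 ± 3.17 CPM in Alb-cre livers (n = 5) and 61.7 ± 5.91 CPM in control livers (n = 4), a log2 fold change of 0.47 ± 0.10 by edgeR (1.39-fold, 95% interval 1.19 to 1.62, adjusted p = 0.0115). The call held in each of 9 fits that left out 1 liver (adjusted p 0.0137 to 0.0339) and was lost when controls 2 and 4 were both left out (log2 fold change 0.40, adjusted p = 0.104), a fit with 2 controls in which 0.5% of all tested genes were called.

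The start of Psme3 is shown because it is the single member that rose. RefSeq places 250 bases before to 50 bases after its start site at chr11:101315963-101316262 on the plus strand of GRCm38.p6. The capitals mark ATTGG, the reverse complement of CCAAT, beginning 14 bases before the start site. CCAAT is the motif bound by NF-Y, a general promoter factor.
Psme3: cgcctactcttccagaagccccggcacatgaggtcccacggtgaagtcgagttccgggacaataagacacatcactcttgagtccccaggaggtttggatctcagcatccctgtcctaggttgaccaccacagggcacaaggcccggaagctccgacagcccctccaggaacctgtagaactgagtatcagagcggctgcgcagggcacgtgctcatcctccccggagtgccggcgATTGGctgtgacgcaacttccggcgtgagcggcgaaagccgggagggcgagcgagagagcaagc

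PA28 alpha and PA28 beta, encoded by Psme1 and Psme2, form a cytosolic ring that interferon-gamma is known to induce. Psme1 measured 70.6, 77.7, 63.2, 72.4 and 67.0 CPM in Alb-cre livers, against 75.3, 103, 71.3 and 120.1 CPM in control livers. The groups overlapped, since controls 1 and 3 lay among the Alb-cre livers and controls 2 and 4 lay far above them. The log2 fold change of Psme1 was -0.40 ± 0.16 (edgeR, adjusted p = 0.0898) and did not pass the threshold. It was -0.50 without control 3 (adjusted p = 0.0439), -0.25 without control 4 (adjusted p = 0.265) and -0.06 without controls 2 and 4 (adjusted p = 0.815). Psme2 ran from 42.3 to 47.3 CPM in Alb-cre livers and from 47.1 to 72.1 CPM in control livers, which overlap only at control 1 (log2 fold change -0.35 ± 0.13, adjusted p = 0.0728, and -0.22 without control 4). Psme2b averaged 29.5 ± 3.05 CPM in Alb-cre livers and 35.4 ± 4.58 CPM in control livers (-0.27 ± 0.12, adjusted p = 0.137, and -0.17 without control 4). The longest coding transcripts of Psme2 and Psme2b were 99.4% identical over 794 aligned bases, so the counting could have split or shared their reads, and the level of each is uncertain.

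PA200, encoded by Psme4, is a single-chain activator that caps the core in the nucleus. Psme4 measured 109, 89.2, 116, 84.3 and 109 CPM in Alb-cre livers, against 90.6, 76.2, 110.0 and 53.4 CPM in control livers. The groups overlapped across most of their range, and control 4 was the lowest (log2 fold change 0.30 ± 0.19, adjusted p = 0.279). Without it the log2 fold change was 0.14, and without controls 2 and 4 it was 0.02. Psmf1, which encodes the inhibitor PI31, averaged 29.5 ± 2.51 CPM in Alb-cre livers and 33.4 ± 5.04 CPM in control livers (-0.18 ± 0.12, adjusted p = 0.327, and -0.11 without control 4). The 6 activator and inhibitor genes summed to 361 ± 9.88 CPM in Alb-cre livers and 362 ± 16.3 CPM in control livers, and their median log2 fold change was -0.22.

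The balance between activators was compared within livers as a log2 ratio of CPM + 0.5, for 3 pairs, with exact two-sided permutation over every split of the 9 livers into 5 and 4 and adjustment over the 3 pairs. For Psme1 to Psme3, the log2 ratio was -0.29, -0.06, -0.40, -0.30 and -0.38 in Alb-cre livers, against 0.18, 0.69, 0.17 and 1.17 in control livers. All 5 Alb-cre livers had more Psme3 than Psme1 counts and all 4 controls the reverse. The difference was -0.84 (exact permutation p = 0.00794, the smallest these splits can give, adjusted p = 0.0238), and without control 4 it was -0.63. Controls 2 and 4 had the highest ratios of the 9 livers. Without both of them, the log2 fold change was -0.06 for Psme1 and 0.40 for Psme3. For Psme4 to Psme1, the difference was 0.70 (exact permutation p = 0.103, adjusted p = 0.155), with 3 of 5 Alb-cre livers above every control, and without control 4 it was 0.37. Controls 1 and 3, at 0.26 and 0.62, lay among the Alb-cre livers (0.20 to 0.87). Controls 2 and 4 lay below them, at -0.44 and -1.16. Ratios of counts between genes also carry their transcript lengths, so only the differences between groups are read here.

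**Figure D2:**
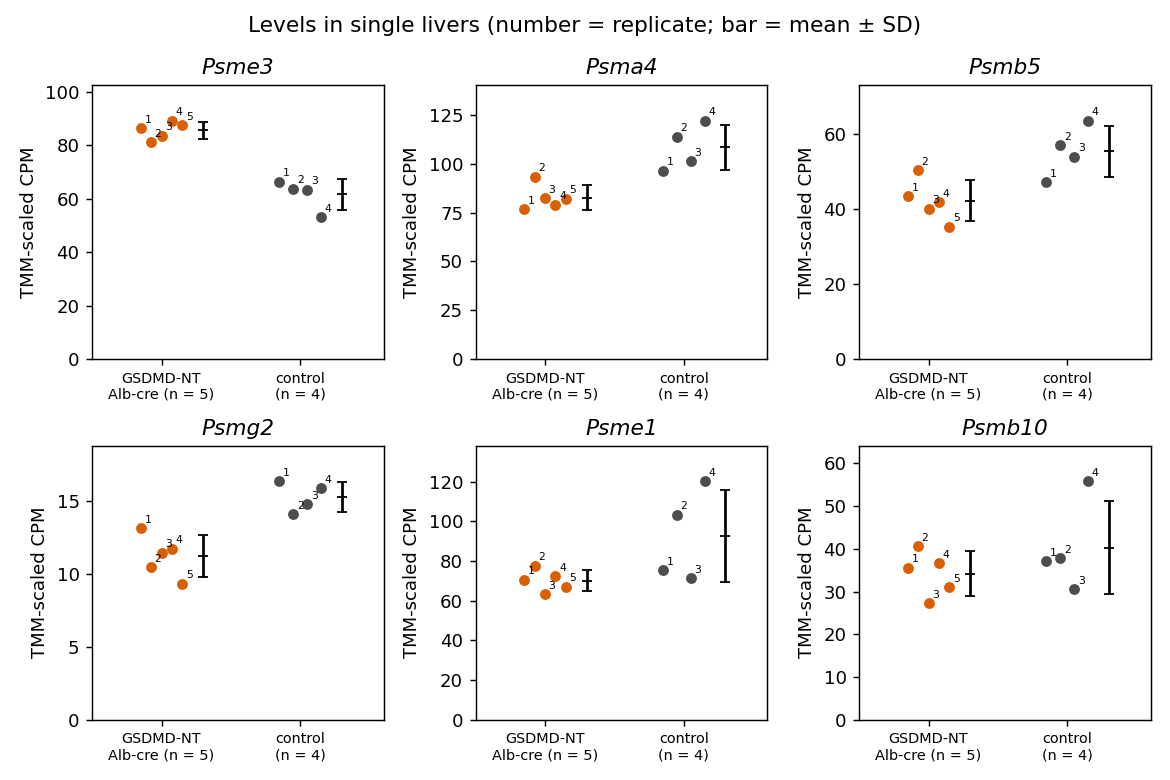
TMM-scaled CPM of 6 members in single livers, numbered by replicate, with bars giving the mean ± SD of the 5 Alb-cre livers and of the 4 control livers. Psme3 is higher and Psma4 and Psmg2 are lower in all Alb-cre livers, Psmb5 overlaps in 1 control, and controls 2 and 4 lift the control mean of Psme1.

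In the core, 2 of the 16 genes fell and 0 rose by edgeR (12.5% called), beside 18.3% of all tested genes (9.25% higher and 9.07% lower). At an unadjusted p under 0.05 there were 7 lower and 1 higher, beside 34.9% of all tested genes (2421 lower and 2460 higher of 14004). DESeq2 called 6 core genes lower and 0 higher, and 24.1% of all tested genes (1654 lower and 1715 higher). Psma4, an alpha ring subunit, measured 76.6, 93.3, 82.4, 79.0 and 82.1 CPM in Alb-cre livers, against 96.5, 114, 101 and 122 CPM in control livers. The groups did not overlap, with Alb-cre 2 and control 1 nearest to each other. Psma4 averaged 82.7 ± 6.42 CPM in Alb-cre livers and 108 ± 11.7 CPM in control livers (log2 fold change -0.39 ± 0.11, edgeR adjusted p = 0.0317). The call of Psma4 was lost without Alb-cre 1, 3, 4 or 5 and without control 2 or 4 (largest adjusted p = 0.0907), and without controls 2 and 4 the log2 fold change was -0.26. In the full GENCODE M21 annotation, 114 exon bases of Psma4 overlap a gene on the opposite strand, and the strand setting of the counting is not given. Of the 48 members, 14 share exon bases with another gene there, 11 of them with a gene on the opposite strand, while Psme3 and Psmg2 share none.

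Psmb5 encodes the beta subunit with the chymotrypsin-like activity, the main target of proteasome inhibitor drugs. Psmb5 measured 43.4, 50.3, 40.1, 41.9 and 35.3 CPM in Alb-cre livers, against 47.2, 57.1, 54.0 and 63.6 CPM in control livers. Only Alb-cre 2 reached the range of the controls, lying above control 1. The log2 fold change was -0.39 ± 0.13 (0.761-fold, 95% interval 0.628 to 0.921, edgeR adjusted p = 0.0492), next to the threshold. The call was kept without Alb-cre 2 or control 1 and lost without any 1 of the other 7 livers (largest adjusted p = 0.131). Without controls 2 and 4 the log2 fold change of Psmb5 was -0.26, and with the correction for transcript length described below it was -0.17 (adjusted p = 0.299).

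The starts of both core genes that fell are shown, again from RefSeq on GRCm38.p6 over the same window. Psma4 lies at chr9:54950609-54950908 on the plus strand and Psmb5 at chr14:54617946-54618245 on the minus strand. The capitals in Psmb5 mark a match to TGACNNNGC, the core of the element that NRF1 and its relative NRF2 recognise, beginning 47 bases before the start site, and Psma4 has no match to either motif on either strand.
Psma4: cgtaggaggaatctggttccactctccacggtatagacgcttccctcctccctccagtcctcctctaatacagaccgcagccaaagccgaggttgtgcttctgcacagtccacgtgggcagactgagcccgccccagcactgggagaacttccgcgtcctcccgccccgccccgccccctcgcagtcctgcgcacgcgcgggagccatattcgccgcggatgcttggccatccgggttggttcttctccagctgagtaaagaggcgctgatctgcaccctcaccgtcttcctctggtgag
Psmb5: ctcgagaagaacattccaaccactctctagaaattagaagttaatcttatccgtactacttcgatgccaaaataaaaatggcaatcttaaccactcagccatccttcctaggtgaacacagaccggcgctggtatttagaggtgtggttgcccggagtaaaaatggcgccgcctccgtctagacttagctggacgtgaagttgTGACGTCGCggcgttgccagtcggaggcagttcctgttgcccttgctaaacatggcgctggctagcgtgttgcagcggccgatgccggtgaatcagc

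Both motifs were searched on both strands over the same window, and no stretch that matches TGACNNNGC can hold a match to CCAAT within it. RefSeq held 44 promoters for 40 members. TGACNNNGC occurred in 13.6% of the member promoters, 14.2% of those of all tested genes and 12.4% of all 32851 promoters. The members with a match were Psmb5, Psmb6, Psmc6, Psmd9, Psmd12 and Psme4, of which 1 fell and the other 5 were not called. CCAAT occurred in 31.8% of the member promoters and 37.4% of all promoters, with 6 of 13 core promoters and 4 of 15 cap promoters. A match is a description of these letters and not evidence of a bound site.

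Of the other alpha subunits, Psma7 averaged 78.7 ± 6.56 CPM in Alb-cre livers and 98.1 ± 7.09 CPM in control livers with no overlap (log2 fold change -0.32 ± 0.11, adjusted p = 0.0553). Psma2 averaged 60.8 ± 3.08 CPM in Alb-cre livers and 70.9 ± 0.435 CPM in control livers, also without overlap (-0.22 ± 0.09, adjusted p = 0.11). Psma1 went the other way, at 80.3 ± 5.87 CPM in Alb-cre livers and 62.0 ± 12.0 CPM in control livers (0.37 ± 0.14, adjusted p = 0.0791, and 0.24 without control 4). Psma3, Psma5 and Psma6 had log2 fold changes of -0.11, -0.13 and 0.01, with -0.17 for Psma3 and -0.07 for Psma6 without control 4. Psma8, which replaces an ordinary alpha subunit in the testis, was near absent at 0.674 ± 0.226 CPM in Alb-cre livers and 0.604 ± 0.224 CPM in control livers.

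All 7 genes of the beta ring had log2 fold changes below 0, of which only that of Psmb5 passed the threshold. Below 0 were also 6833 of all 14004 tested genes, and 676 of the 862 protein-coding ones of up to 1200 bases. The log2 fold change of Psmb7 was next to 0 and kept its sign in 11 of 21 alternatives, and Psmb4 was at 0.10 in the length-corrected fit. Psmb6 encodes the subunit with the caspase-like activity. It averaged 137 ± 11.2 CPM in Alb-cre livers and 169 ± 14.4 CPM in control livers (-0.30 ± 0.11, adjusted p = 0.0788). Psmb3, a beta subunit without a catalytic site, averaged 59.5 ± 4.71 CPM in Alb-cre livers and 78.0 ± 13.7 CPM in control livers (-0.39 ± 0.13, adjusted p = 0.0561, and -0.17 without controls 2 and 4). Psmb2 (-0.25), Psmb1 (-0.15) and Psmb4 (-0.09) differed less on the log2 scale.

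Psmb7 encodes the constitutive subunit with the trypsin-like activity, and Psmb10 the interferon-inducible subunit that takes its place in the immunoproteasome. Psmb7 measured 79.9, 73.5, 89.5, 74.9 and 86.2 CPM in Alb-cre livers, against 92.1, 82.8, 93.4 and 56.1 CPM in control livers. Psmb10 measured 35.5, 40.7, 27.3, 36.6 and 31.0 CPM in Alb-cre livers, against 37.1, 37.8, 30.5 and 55.8 CPM in control livers. Control 4 was the lowest of all livers for Psmb7 and the highest for Psmb10, and the other livers overlapped. Neither gene passed the threshold, with log2 fold changes of -0.01 ± 0.15 for Psmb7 (95% interval -0.33 to 0.32, adjusted p = 0.984) and -0.24 ± 0.17 for Psmb10 (-0.61 to 0.14, adjusted p = 0.353). Without control 4 they were -0.15 for Psmb7 and -0.04 for Psmb10. The log2 ratio of Psmb10 to Psmb7 differed by -0.23 (exact permutation p = 0.595, adjusted p = 0.595), and by 0.10 without control 4.

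In the cap, 0 of 17 genes rose or fell, beside 18.3% of all tested genes. By DESeq2 and by limma-voom the count was also 0, and no cap gene passed an unadjusted p under 0.05 in edgeR's test. For 16 of the 17 the 95% interval stayed within 1.5-fold. Among the ATPases of the base, Psmc3 had the smallest p and measured 115, 123, 115, 117 and 119 CPM in Alb-cre livers, against 125, 130.3, 126.3 and 121 CPM in control livers. The groups overlapped, with Alb-cre 2 above control 4 (log2 fold change -0.09 ± 0.09, adjusted p = 0.508). The 6 ATPase genes summed to 549 ± 25.3 CPM in Alb-cre livers and 548 ± 30.6 CPM in control livers.

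The rest of the base binds ubiquitin and scaffolds the cap. Psmd4, a ubiquitin receptor, measured 114, 121, 106, 105 and 114 CPM in Alb-cre livers, against 119, 137, 124 and 137 CPM in control livers. Only Alb-cre 2 overlapped the controls, above control 1 (log2 fold change -0.21 ± 0.10, adjusted p = 0.176). The large scaffold genes Psmd2 (0.26 ± 0.13, adjusted p = 0.179) and Psmd1 (0.21 ± 0.19, adjusted p = 0.444) did not pass the threshold. Both had their lowest level of all 9 livers in control 4, without which they were at 0.16 for Psmd2 and 0.05 for Psmd1.

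In the lid, Psmd13, a scaffold subunit, had the smallest p and measured 54.1, 71.1, 52.4, 54.0 and 58.9 CPM in Alb-cre livers, against 47.0, 55.3, 50.6 and 44.3 CPM in control livers. Among the Alb-cre livers lay control 2, and the other controls lay below them (log2 fold change 0.24 ± 0.12, adjusted p = 0.189). Psmd14, the deubiquitinase of the lid, averaged 45.5 ± 3.97 CPM in Alb-cre livers and 39.5 ± 4.56 CPM in control livers (0.20 ± 0.11, adjusted p = 0.229). The 8 lid genes summed to 646 ± 47.3 CPM in Alb-cre livers and 613 ± 53.9 CPM in control livers.

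**Figure D3:**
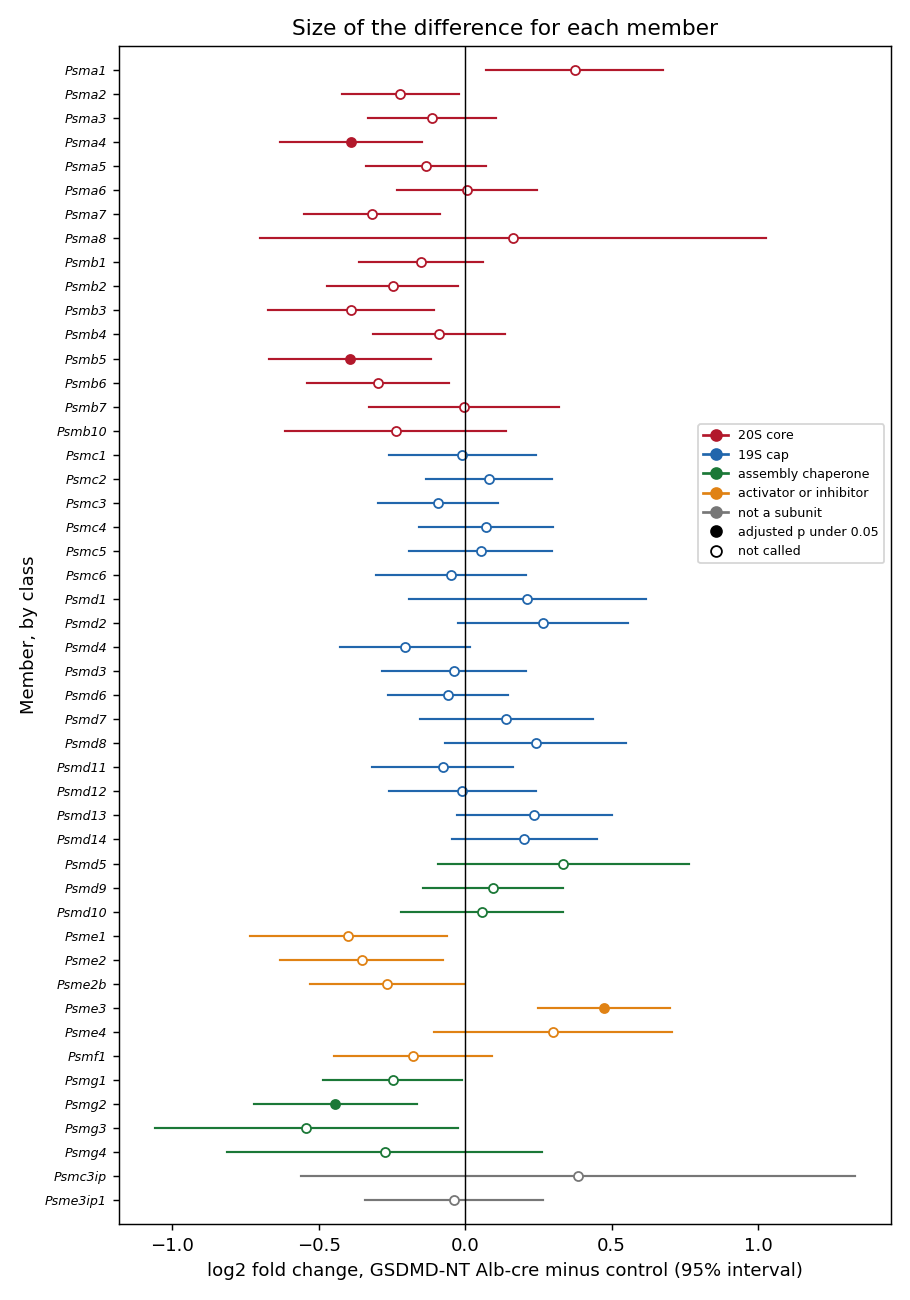
Log2 fold change of each of the 48 members, Alb-cre minus control, with its 95% interval from edgeR's fit, coloured by role. Filled points are the 4 members with an adjusted p under 0.05, 12 of 14 constitutive core points lie left of 0, and cap points lie on both sides.

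Core and cap had different medians, a description with no test of the difference, since 2 core genes and 0 cap genes passed the threshold. The 14 constitutive core genes (leaving out Psma8 and Psmb10) had a median log2 fold change of -0.19, with 12 of 14 below 0. The 17 cap genes had a median of 0.05, with 8 of 17 below 0. All tested genes had a median of 0.01, with 6833 of 14004 below 0. With RLE factors, upper-quartile factors or library totals in place of TMM, 12 to 13 of the core genes and 8 of the cap genes were below 0. The core median minus the cap median was -0.24, and -0.27 to -0.21 with 1 liver left out. Without controls 2 and 4 it was -0.15, with a core median of -0.19 (13 of 14 below 0) and a cap median of -0.05 (9 of 17 below 0).

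The same contrast was seen within livers. As the median over genes of log2(CPM + 0.5) minus the control mean, the core stood at -0.23, -0.13, -0.17, -0.20 and -0.21 in Alb-cre livers, against -0.02, 0.07, 0.02 and -0.02 in control livers. The ranges did not overlap. The cap stood at 0.03, 0.20, -0.02, -0.01 and 0.10 in Alb-cre livers, against 0.04, 0.03, 0.07 and -0.14 in control livers, and its ranges overlapped. The summed CPM of the core divided by that of the cap was 0.742, 0.722, 0.755, 0.773 and 0.679 in Alb-cre livers, against 0.806, 0.880, 0.813 and 0.941 in control livers.

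Transcript length moved with this contrast. Core genes are short, with a median exon length of 1172.5 bases against 1989 bases for the cap. Across the 48 members, the Spearman correlation of the log2 fold change with exon length was 0.56, a description over genes that share the same 9 libraries. The 862 tested protein-coding genes of up to 1200 bases had a median log2 fold change of -0.31 (676 below 0), and the 6797 over 3000 bases one of 0.12 (2601 below 0). At an unadjusted p under 0.05 by edgeR, 55 of the 862 were higher and 364 lower. By liver, the median of the short genes was -0.29, -0.17, -0.32, -0.22 and -0.40 in Alb-cre livers, against -0.11, 0.07, -0.10 and 0.18 in control livers. Among the short genes too, the groups did not overlap.

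After each liver's trend with length was removed by an offset, the core median was -0.10, with 9 of 14 below 0, and the cap median was 0.17, with 5 of 17 below 0. In that fit Psme3 (log2 fold change 0.47 ± 0.10, adjusted p = 0.0115) and Psma1 (0.54 ± 0.16, adjusted p = 0.0387) rose, 0 members fell (4 were lower and 5 higher at an unadjusted p under 0.05), and the background was 15.7% of 13836 genes (7.81% higher and 7.85% lower). The fall of Psma4 was -0.19 and no longer called (adjusted p = 0.18). Over the members, the correlation with length was 0.20 in this fit. The median of the genes of up to 1200 bases was -0.08 in this fit, against -0.31 without the correction, while the core median minus the cap median was -0.27, against -0.24. Both medians lay higher with the correction than without it. How much of the contrast between core and cap follows transcript length was not tested.

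**Figure D4:**
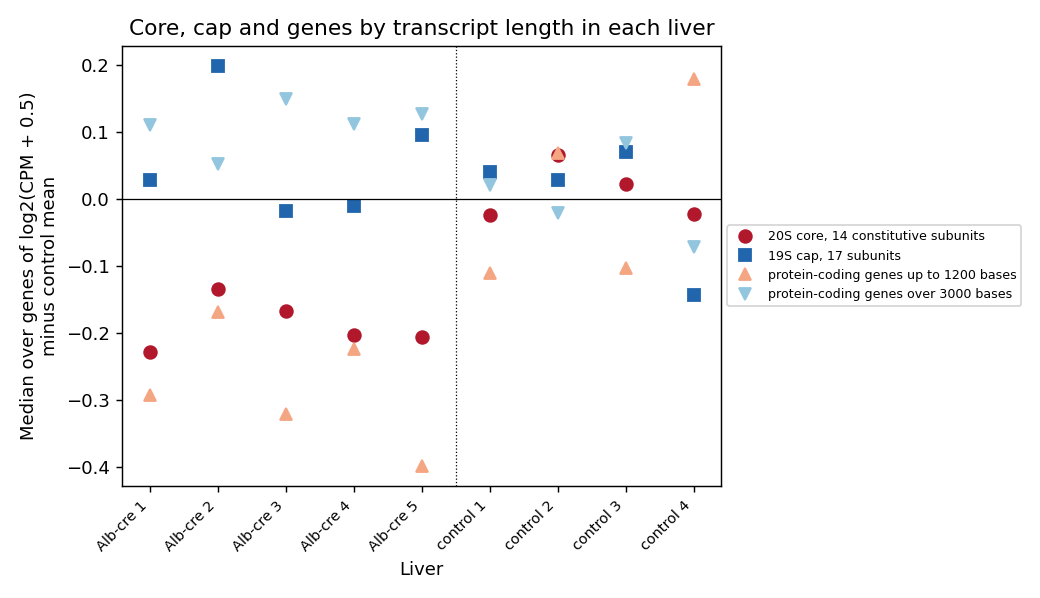
Median over genes of log2(CPM + 0.5) minus the control mean in each liver, for the 14 constitutive core genes, the 17 cap genes, protein-coding genes of up to 1200 bases and protein-coding genes over 3000 bases. In the Alb-cre livers the core lies at -0.23 to -0.13 and the short genes at -0.40 to -0.17, while the cap and the long genes lie mostly above 0.

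Of the 7 assembly chaperone genes, 1 of the 4 for the core fell and 0 of the 3 for the cap base passed the threshold. Called were 14.3% of the 7, beside 18.3% of all tested genes (9.25% higher and 9.07% lower). PAC1 and PAC2, encoded by Psmg1 and Psmg2, pair up and guide the alpha ring, and PAC3 and PAC4, encoded by Psmg3 and Psmg4, act beside them. Psmg2 measured 13.1, 10.5, 11.4, 11.7 and 9.30 CPM in Alb-cre livers, against 16.3, 14.1, 14.7 and 15.8 CPM in control livers. The groups did not overlap (log2 fold change -0.44 ± 0.13, 0.735-fold, edgeR adjusted p = 0.0339). Without Alb-cre 1 the call was kept, and without any 1 of the other 8 livers it was lost (largest adjusted p = 0.0807).

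Its partner Psmg1 averaged 19.7 ± 1.72 CPM in Alb-cre livers and 23.4 ± 1.81 CPM in control livers, also without overlap (-0.25 ± 0.11, adjusted p = 0.129). Psmg3, at 3.87 ± 1.21 CPM in Alb-cre livers and 5.64 ± 0.853 CPM in control livers, had the largest log2 fold change of the 48 members in size but a wide error (-0.54 ± 0.24, adjusted p = 0.126). Psmg4 had a log2 fold change of -0.28 ± 0.25, and -0.08 without control 4. Their median exon length was 963.5 bases, near that of the core, and in the length-corrected fit the median of the 4 genes was -0.16, against -0.36 without the correction. None of the 4 was called in that fit, with Psmg2 at -0.28 (adjusted p = 0.15), Psmg1 at -0.04 and Psmg4 at -0.03.

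The genes of the cap base chaperones had log2 fold changes above 0, none of them called. Psmd5 measured 33.1, 29.1, 37.2, 32.7 and 36.1 CPM in Alb-cre livers, against 35.7, 22.0, 32.5 and 16.6 CPM in control livers. Controls 1 and 3 lay among the Alb-cre livers and controls 2 and 4 below them (log2 fold change 0.34 ± 0.20, adjusted p = 0.247), and without those 2 the log2 fold change was -0.02. Psmd9 had a log2 fold change of 0.09 ± 0.11, and Psmd10, which encodes the oncoprotein gankyrin, one of 0.06 ± 0.13, and without control 4 they were at 0.02 and -0.01. Outside the proteasome proper, Psmc3ip, a meiotic recombination factor, measured 0.319, 0.999, 0.807, 0.398 and 0.664 CPM in Alb-cre livers, against 0.608, 0.323, 0.660 and 0.359 CPM in control livers, with full overlap. Psme3ip1, a partner of PA28 gamma, averaged 23.8 ± 1.70 CPM in Alb-cre livers and 24.4 ± 4.81 CPM in control livers.

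Subunits of 1 particle did not have equal RNA levels. Per kilobase of exon, the 14 constitutive core genes ran from 20.9 to 172 CPM in Alb-cre livers and from 24.3 to 212 CPM in control livers. Psmb6 was the highest, at 172 ± 14.03 CPM per kilobase in Alb-cre livers and 212 ± 18.1 in control livers. Psmb4 came next, at 147 ± 10.4 CPM per kilobase in Alb-cre livers and 157 ± 6.48 in control livers, and Psma2 was the lowest of the core. The cap genes lay closer together, from 24.0 to 67.0 CPM per kilobase in Alb-cre livers and from 20.7 to 70.3 in control livers. The assembly chaperones ran from 4.39 to 18.9 CPM per kilobase in Alb-cre livers and from 6.07 to 22.4 in control livers, and in the Alb-cre livers each lay below every constitutive core and cap gene. Psme1 was the highest activator, at 63.1 ± 4.94 CPM per kilobase in Alb-cre livers and 83.2 ± 20.9 in control livers. By mean level per kilobase, Psme3 had rank 25 of 48 in Alb-cre livers and rank 35 in control livers. These lengths count every exon of the basic GENCODE transcripts once, so a gene with long untranslated isoforms is placed too low.

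**Figure D5:**
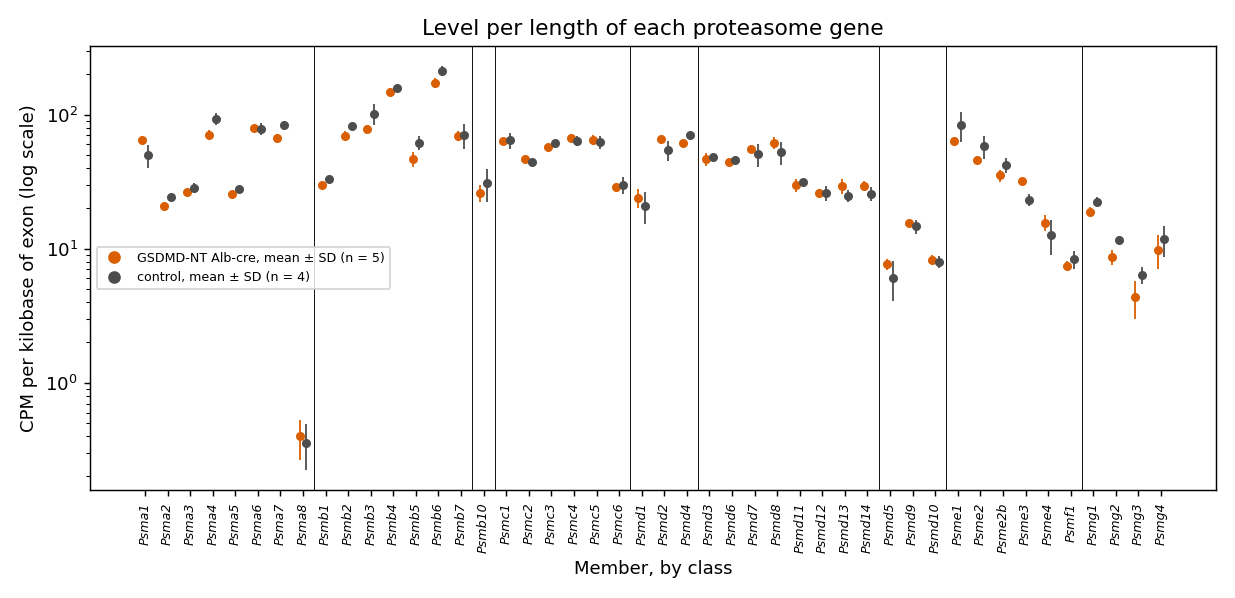
CPM per kilobase of exon on a log scale for the members other than Psmc3ip and Psme3ip1, by class, as mean ± SD over 5 Alb-cre livers and 4 control livers. Psmb6 and Psmb4 are the highest, the cap genes lie within a narrow band, the assembly chaperones are lower, and Psma8 is near absent.

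Genes that act with the proteasome but carry other symbols were read from 5 lists. Beside each list's count stands the share of all tested genes called, 18.3%, and no list was tested against it. Of 11 tested parts and partners, 1 rose and 2 fell (27.3%). Sem1, a small lid subunit, averaged 32.9 ± 4.12 CPM in Alb-cre livers and 45.6 ± 9.31 CPM in control livers (log2 fold change -0.47 ± 0.15, adjusted p = 0.0429). Zfand5, which encodes a zinc finger protein that activates the cap-bearing proteasome, also fell (-0.48 ± 0.14, adjusted p = 0.0313). Ubfd1, a ubiquitin-domain gene, rose to 56.3 ± 5.75 CPM in Alb-cre livers, against 32.6 ± 1.14 CPM in control livers, without overlap (0.79 ± 0.11, adjusted p = 0.0025). With 1 liver left out, Ubfd1 was called in 9 of 9 fits, Zfand5 in 5 and Sem1 in 3, and Sem1 was at -0.21 without controls 2 and 4.

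Of 12 genes in the list on transcriptional control of proteasome genes, 4 were higher and 3 lower (58.3%), beside 18.3% of all tested genes. That list also holds Zfand2a, 1 of the 4 higher, whose product is a proteasome-associated protein. In the length-corrected fit 2 were higher and 3 lower, beside 15.7%. Nfe2l1 measured 162, 180.4, 181, 152 and 224 CPM in Alb-cre livers, against 134, 147, 134 and 105 CPM in control livers. Every Alb-cre liver was above every control (log2 fold change 0.47 ± 0.14, adjusted p = 0.0403). The call of Nfe2l1 held in 3 of 9 fits with 1 liver left out (largest adjusted p = 0.107) and was lost under both replicate blocks, without controls 2 and 4 and with the length correction (0.36, adjusted p = 0.0897). Ddi2, the protease that cuts NRF1 into its active form, rose as well (0.53 ± 0.14, adjusted p = 0.0252), as did Zfand2a, which encodes an arsenite-inducible proteasome-associated protein (0.69 ± 0.19, adjusted p = 0.0268), and Nfya, a subunit of the CCAAT-binding factor (0.39 ± 0.12, adjusted p = 0.0427). The genes of the other subunits of that factor were not called, Nfyb at -0.33 (edgeR adjusted p = 0.097) and Nfyc at -0.06 (adjusted p = 0.717). With 1 liver left out, Ddi2 and Zfand2a were each called in 6 of 9 fits and Nfya in 1. Without controls 2 and 4, Zfand2a was at 0.38.

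The relative of Nfe2l1, Nfe2l2, which encodes NRF2, measured 48.5, 45.3, 74.0, 63.6 and 59.0 CPM in Alb-cre livers, against 87.1, 108, 94.5 and 108 CPM in control livers. Its groups did not overlap (log2 fold change -0.77 ± 0.15, adjusted p = 0.00772). The proteins of the small Maf genes pair with NRF1 and NRF2 on DNA. Of these genes, Maff fell at -1.94 ± 0.29 (adjusted p = 0.00386) and Mafg at -0.92 ± 0.14 (adjusted p = 0.00422). Mafk was not called (-0.23, edgeR adjusted p = 0.393, and -0.05 without control 4). Nfe2l2, Maff and Mafg were called in 9 of 9 fits with 1 liver left out. These are RNA levels, and NRF1 is controlled largely after translation.

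Upstream of the proteasome, 1 of 10 ubiquitin and activation genes fell and 0 rose by edgeR, beside 18.3% of all tested genes (2 higher at an unadjusted p under 0.05). That gene was Ube2r2, a ubiquitin-conjugating enzyme (log2 fold change -0.46 ± 0.14, adjusted p = 0.0401), called in 3 of 9 fits with 1 liver left out and at -0.22 without controls 2 and 4. The ubiquitin-activating enzyme genes Uba6 (0.56 ± 0.21, adjusted p = 0.0818) and Uba1 (0.33 ± 0.14, adjusted p = 0.113) did not pass. Of 11 shuttle and unfoldase genes, 2 rose (18.2%, near the 18.3% of all tested genes), the unfoldase cofactor gene Nploc4 (0.64 ± 0.19, adjusted p = 0.0366) and the shuttle gene Ubqln4 (0.43 ± 0.13, adjusted p = 0.0369). With 1 liver left out, Nploc4 was called in 5 of 9 fits and Ubqln4 in 1. Nploc4 was at 0.32 without controls 2 and 4, and 0 of the 11 genes were called in the length-corrected fit. Nsfl1c, which encodes another cofactor of the same unfoldase, was at -0.28 ± 0.09 (adjusted p = 0.052).

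Psme1, Psme2 and Psmb10 are known targets of interferon-gamma, so other targets were read beside them. Of 17 such genes, 2 rose and 1 fell (17.6%, near the 18.3% of all tested genes). Those that rose were Gbp2 (log2 fold change 1.00 ± 0.26, adjusted p = 0.0226) and Irgm1 (0.56 ± 0.18, adjusted p = 0.0455), both interferon-inducible GTPases. The transcription factor gene Irf1 fell (-0.61 ± 0.18, adjusted p = 0.0394), with control 4 the highest liver at 45.9 CPM against 25.7 to 27.9 CPM in the other controls. Without control 4, Irf1 was at -0.37 (adjusted p = 0.106). With 1 liver left out, Gbp2 was called in 7 of 9 fits, Irf1 in 2 and Irgm1 in 1. Immune cells express these genes strongly. The 9 lymphocyte markers summed to 2.93 to 5.51 CPM in Alb-cre livers and 6.19 to 11.2 CPM in control livers. Only 4 of the 9 passed the filter on low counts, of which 3 had log2 fold changes below 0 and 1 above 0. Among these, Cd79a, which encodes a part of the B cell receptor, fell (log2 fold change -2.31 ± 0.42, adjusted p = 0.00617). The 9 macrophage markers summed to 208 to 256 CPM in Alb-cre livers and 142 to 272 CPM in control livers. Of these 9, 1 was called, a rise (Timd4, 11.1% of the list, beside 18.3% of all tested genes). No marker of either list was at 0 in all livers, and the part of these cells in the levels of Psme1, Psme2 and Psmb10 was not tested.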

How the data were processed

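Counts per gene were deposited by the authors as whole numbers with no normalization, for 18954 genes in 9 mouse livers. Per the labels' protocols, total RNA was depleted of ribosomal RNA and sequenced from both ends in libraries that keep strand. The submitters' processing notes name HISAT2 2.1.0, fastp 0.23.2 and build GRCm39. Neither the counting tool nor its strand setting nor the annotation release is given in the sources used here.

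Sample titles gave each liver's group and number. In R 4.3.3, genes passing filterByExpr (14004) were scaled by TMM (factors 0.894 to 1.10) and tested with edgeR 4.0.16 (glmQLFit, glmQLFTest, group only), with Benjamini-Hochberg adjustment over all of them and calls at an adjusted p under 0.05. Log2 ratios used a prior of 0.5 CPM. Totals of 13361093 to 16823506 counts set the precision. Within groups, livers differed beyond sampling noise (lowest chi-square per gene 12.0). The procedure was also run on simulated counts with few or no changed genes, no trend with length and no livers set apart. That setting is unlike these data, so the run does not check the calls. Exon lengths came from the basic transcripts of GENCODE M21 (GRCm38) and exon overlaps from its full annotation, both matched by gene ID. Promoters came from RefSeq (GRCm38.p6), so coordinates are given only for promoters. Figures were drawn with matplotlib 3.10.9.

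Values in every liver were given for called members, the member with the smallest p of each class and the genes of the 3 ratios. From each list, the 3 genes with the smallest p were named, with Nfe2l1 and Nfe2l2. Any other gene was picked with its values in view. The members and lists were chosen with earlier results of these data known. Alternatives were upper-quartile and RLE factors, totals as library sizes, DESeq2 1.42.0, limma-voom (limma 3.58.1), no filter or a stricter one (4 livers or more with a CPM of 1 or more), blocks on the title or description number, each liver left out, controls 2 and 4 left out, removal of mitochondrially encoded and the 20 most abundant genes, a length-corrected offset (lowess, span 0.3) and a prior of 0.1 CPM. The result of 1 marker gene is not reported here.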

Additional observations from a re-analysis of the deposited data

Results flagged for a closer look

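The 48 members and the 3 log2 ratios were looked at in each group, 102 sets of values in all, and 2 of these had 1 liver set apart from the others of its group. Chance alone flags about 1 in 20 groups. Psma2 in control livers was highest in control 2, at 71.5 CPM, next to 70.7 CPM in the nearest control. That set spans a narrow range, with an SD of 0.435 CPM over the 4 controls. Psmd8, a lid subunit gene, in Alb-cre livers was highest in Alb-cre 2, at 159 CPM, and the nearest liver of the group had 133 CPM. Psmd8 averaged 136 ± 13.2 CPM in Alb-cre livers and 115 ± 22.3 CPM in control livers (log2 fold change 0.24 ± 0.14, edgeR adjusted p = 0.252).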

How the results depend on the processing

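Psme3 stayed called in 19 of 21 alternatives, and Psma4, Psmb5 and Psmg2 in 10, 7 and 7. The count of members higher and lower was 1 and 5 with upper-quartile factors, 1 and 1 with library totals, 1 and 7 with DESeq2, 1 and 0 without a low-count filter, 2 and 0 with length-corrected offsets, and 0 and 0 without controls 2 and 4. Of all tested genes, 18.4% were called with upper-quartile factors, 14.8% with library totals, 24.1% with DESeq2, 12.5% without a filter, 15.7% with length-corrected offsets and 0.5% without controls 2 and 4. With 1 liver left out, the count higher was 1 in each of the 9 fits, and the count lower ran from 0 (without Alb-cre 3, 4 or 5 or control 2 or 4) to 3, with 1 without Alb-cre 1. Over these 9 fits the Psme1 to Psme3 log2 ratio difference ran from -0.97 to -0.63 (adjusted p 0.0536 to 0.0857, a design too small to reach the threshold), and the Psmb10 to Psmb7 difference from -0.43 to 0.10, above 0 only without control 4. Some fold changes turned sign. Without controls 2 and 4, Psmd5 was at -0.0178 (0.34 with all livers) and Psmb10 at 0.0173 (-0.24 with all livers). Psmb7, at -0.01 with all livers, was at 0.0179 with limma-voom, 0.00912 without a filter, 0.177 with length-corrected offsets, and -0.147 to 0.0712 with 1 liver left out. The cause of these changes was not tested, beyond the fewer livers of some fits. Among all values under all alternatives, 586 kept their direction and call, 138 kept the direction and lost the call, 8 gained a call, 13 changed sign and 17 were counts that moved by more than 1.5 times.

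Same-numbered livers did not deviate together (correlations 0.06, -0.01, 0.11 and 0.15 for the title numbers, and 0.06, -0.11 and -0.13 for the description numbers), so the numbers were not read as pairs, and of the title numbers only number 4 matched best with itself. A block on the title number, with 8 livers, gave 1 member higher and 0 lower (12.5% of all tested genes called). The Psme1 to Psme3 difference was then -0.82 (exact permutation p = 0.125 within blocks, adjusted p = 0.188). That p is the smallest this blocked design can give, so the test could not reach the threshold whatever the difference. A block on the description number, with 6 livers, gave 0 higher and 0 lower (3.57% of all tested genes called). The Psmb7 log2 fold change was 0.0359 with the block on the description number.

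Lowly expressed members limit what can be seen, since Psma8, Psmc3ip, Psmg3 and Psmg4 had wide intervals. Cell types were not separated, and protein and proteasome activity were not measured.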
